A study of Homo sapiens with 3 samples.

Results

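Receptor-type protein tyrosine phosphatases are single-pass membrane enzymes that remove phosphate from tyrosine and so act opposite to kinases such as ALK. 7 of them are described here: PTPRG, PTPRS, PTPRD, PTPRF, PTPRK, PTPRA and PTPRZ1. They were taken by gene name, 7 of 32738 gene rows, and were chosen with differences between these libraries already known, so their levels and ratios are given as a description with no test. The cells were Kelly, an established line from human neuroblastoma in which MYCN is amplified and ALK is mutated, and TAE684 is an ALK inhibitor. The libraries labelled sensitive, intermediate resistant and fully resistant came from cells kept in DMSO, in 500 nM TAE684 and in 1 µM TAE684. Each state was 1 droplet library of RNA 3' ends, in which a unique molecular identifier (UMI) marks each captured molecule. Drug dose, resistance, time in culture and library therefore cannot be told apart, and intervals below cover counting error only.

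The ectodomains of these enzymes meet matrix or neighbouring cells, and the cytoplasmic domains carry the catalytic activity. PTPRS, PTPRD and PTPRF form the LAR family, which binds heparan and chondroitin sulfate proteoglycans and synaptic adhesion proteins and recruits liprins inside the cell. PTPRG and PTPRZ1 carry a carbonic anhydrase-like domain and bind contactins, and PTPRZ1 is also the receptor of pleiotrophin and midkine. PTPRK mediates adhesion between like molecules, and PTPRA, with a short glycosylated ectodomain, activates SRC family kinases. In neuroblastoma PTPRD is known as a target of deletions.

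Called cells numbered 5415 in the sensitive library, 6288 in the intermediate resistant library and 6331 in the fully resistant library, with at least 5000 UMIs, at least 500 genes and at most 20% mitochondrial UMIs each. They held 95119772, 102449567 and 106163582 UMIs in that order, with median UMIs per cell of 16008, 15660.5 and 16014. All 13 neuroblastoma markers tested, among them HAND2, GATA3 and DBH, were at 5 counts per 1e6 UMIs (CPM) or more in each library, and they summed to 4314 CPM in sensitive, 5111 CPM in intermediate resistant and 2845 CPM in fully resistant cells. Of 6 endothelial markers 1, CLDN5, passed 5 CPM in fully resistant cells, and the list summed to 0.704 CPM in sensitive, 1.07 CPM in intermediate resistant and 36.9 CPM in fully resistant cells. SOX10 and CDH19, which mark Schwann cells, had 2 and 0 UMIs in the fully resistant library. Mitochondrial RNA was 5.57% of UMIs in sensitive, 5.13% in intermediate resistant and 6.57% in fully resistant cells, and cytosolic ribosomal protein RNA was 36.6%, 39.5% and 33.6%. Of the called barcodes, 1.49% to 1.86% were also called in another library (94 to 118 barcodes per library). Barcodes drawn at random would share 92.7 to 100.5 per library.

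Promoters are shown for the members that came closest to disappearing from a library (PTPRG, PTPRD and PTPRZ1) and for PTPRS, whose start site stood out in sequence. Each runs 5′ to 3′ on the gene's own strand from 250 bases before to 50 bases after the RefSeq start in GRCh38.p14. Capitals mark E-boxes, the hexamer CANNTG that basic helix-loop-helix proteins of the MYC and proneural families bind.
PTPRG, chr3:61561321-61561620, plus strand: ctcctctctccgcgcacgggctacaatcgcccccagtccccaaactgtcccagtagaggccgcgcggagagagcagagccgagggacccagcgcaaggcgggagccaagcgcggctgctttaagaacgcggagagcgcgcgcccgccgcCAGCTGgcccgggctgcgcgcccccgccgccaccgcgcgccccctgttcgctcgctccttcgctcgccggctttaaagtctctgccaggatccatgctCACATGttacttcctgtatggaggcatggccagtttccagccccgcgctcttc
PTPRD, chr9:10612953-10613252, minus strand: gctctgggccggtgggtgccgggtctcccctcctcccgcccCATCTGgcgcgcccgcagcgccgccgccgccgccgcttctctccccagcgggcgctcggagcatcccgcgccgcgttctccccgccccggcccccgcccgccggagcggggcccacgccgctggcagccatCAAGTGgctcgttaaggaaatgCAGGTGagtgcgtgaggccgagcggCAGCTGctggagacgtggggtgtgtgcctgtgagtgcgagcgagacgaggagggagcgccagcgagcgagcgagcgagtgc
PTPRZ1, chr7:121872911-121873210, plus strand: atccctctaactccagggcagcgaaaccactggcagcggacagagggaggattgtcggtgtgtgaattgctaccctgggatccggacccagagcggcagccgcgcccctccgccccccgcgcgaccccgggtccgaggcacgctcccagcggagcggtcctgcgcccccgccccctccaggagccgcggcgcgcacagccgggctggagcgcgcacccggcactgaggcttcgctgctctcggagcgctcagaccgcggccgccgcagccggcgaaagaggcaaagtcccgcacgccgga
PTPRS, chr19:5340763-5341062, minus strand: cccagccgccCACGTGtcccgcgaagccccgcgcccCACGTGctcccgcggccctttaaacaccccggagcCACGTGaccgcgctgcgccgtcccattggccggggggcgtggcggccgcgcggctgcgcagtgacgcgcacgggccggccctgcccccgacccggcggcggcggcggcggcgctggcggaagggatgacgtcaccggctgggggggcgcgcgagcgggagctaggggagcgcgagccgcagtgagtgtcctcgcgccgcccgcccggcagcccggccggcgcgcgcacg

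PTPRS held 3 copies of CACGTG, the E-box form preferred by MYC proteins, which is 1 form of CANNTG and so was counted under both. CACGTG was in 7.43% of the 27305 promoters of the same length, and the 6 other phosphatases held none. CANNTG, which reads alike on both strands, was in 68.9% of promoters. It occurred 4 times at PTPRD, 2 times at PTPRG and 1 time at PTPRA, and not in these windows of PTPRF, PTPRK and PTPRZ1. TATAAA was absent from all 7 windows on both strands, against 12.0% of promoters that held it. GC content was 68.7% to 81.3% over the 7, lowest at PTPRG and PTPRF and highest at PTPRS, against a median of 58.3% for all promoters. A match is a description of letters and not evidence of binding.

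The 7 genes did not move as a block. PTPRG was high in intermediate resistant cells and low in fully resistant cells, PTPRD was all but lost from fully resistant cells, and PTPRF, PTPRK and PTPRZ1 were highest there. PTPRS and PTPRA were highest in sensitive cells. In the summed UMIs of the 7, PTPRG made up 14.3% in sensitive, 52.2% in intermediate resistant and 2.17% in fully resistant cells, while PTPRF made up 24.8%, 15.5% and 52.1%. UMIs of 3' ends depend on each transcript's end as well as on its abundance, so these shares describe the libraries and do not rank the genes.

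**Figure D1:**
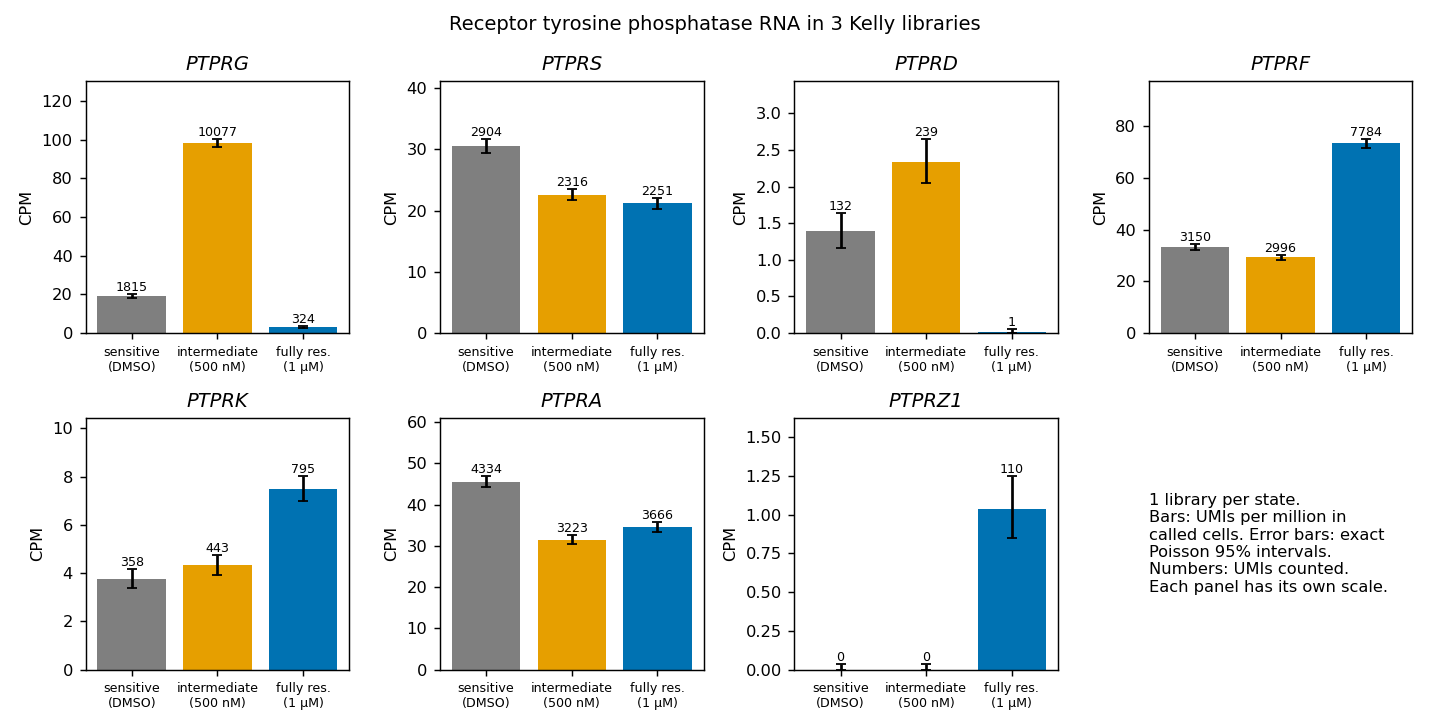
RNA level of each phosphatase, in CPM on an axis of its own from 0, in the sensitive, intermediate resistant and fully resistant libraries. Bars are 1 library each, error bars are exact Poisson 95% intervals and the numbers are UMIs. PTPRG reaches 98.4 CPM in intermediate resistant cells, PTPRF 73.3 CPM in fully resistant cells, and PTPRD has 1 UMI in fully resistant cells.

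Among the contactin-binding receptors, PTPRG (ENSG00000144724) had 19.1 CPM in sensitive cells (1815 UMIs, 95% interval 18.21 to 19.98), 98.4 CPM in intermediate resistant cells (10077 UMIs, 96.4 to 100.3) and 3.05 CPM in fully resistant cells (324 UMIs, 2.73 to 3.40). The order therefore turned between the resistant states: the intermediate resistant library was the highest of the 3 and the fully resistant library the lowest, with no overlap of intervals. The level in fully resistant cells was 32.2-fold lower than in intermediate resistant cells (28.9 to 36.1) and 6.25-fold lower than in sensitive cells (5.55 to 7.06). In intermediate resistant over sensitive cells, PTPRG had the 63rd highest ratio of 9529 genes with at least 5 CPM in 1 of the libraries. In fully over intermediate resistant cells, 0.291% of 9614 such genes had a lower ratio.

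PTPRZ1 (ENSG00000106278) had 0 UMIs in sensitive cells, 0 UMIs in intermediate resistant cells and 110 UMIs in fully resistant cells, where its level was 1.04 CPM (0.852 to 1.25). With 3 UMIs as the limit that a count of 0 allows in each library, this was at least 32.9-fold higher in fully resistant than in sensitive cells and at least 35.4-fold higher than in intermediate resistant cells, taking the 110 UMIs as counted. With the counting error of both libraries, the lower end of the ratio of fully resistant over sensitive cells was 26.3. The 110 UMIs lay in 100 cells, none with more than 3. Empty droplets of the fully resistant library held 9 PTPRZ1 UMIs, a level of 2.46 CPM (1.12 to 4.67) against 1.04 CPM in cells. If each cell carried as much RNA from outside as a mean empty droplet, this would be 0.673% of the level in cells. That share was at most 0.364% for the other 6 genes in any library.

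The LAR family split 3 ways. PTPRD (ENSG00000153707) had 1.39 CPM in sensitive cells (132 UMIs), 2.33 CPM in intermediate resistant cells (239 UMIs) and 0.00942 CPM in fully resistant cells (1 UMI, 0.000238 to 0.0525). Its ratio of fully resistant over sensitive cells was 0.00679, with a counting interval of 0.000171 to 0.0385, and that over intermediate resistant cells 0.00404 (0.000102 to 0.0227). Both intervals lie far below 1. PTPRF (ENSG00000142949), the LAR protein itself, went the other way at 33.1 CPM in sensitive cells (3150 UMIs), 29.2 CPM in intermediate resistant cells (2996 UMIs) and 73.3 CPM in fully resistant cells (7784 UMIs). Its level in fully resistant cells was 2.21-fold that of sensitive cells (2.12 to 2.31) and 2.51-fold that of intermediate resistant cells (2.40 to 2.62). PTPRS (ENSG00000105426), which inhibits axon growth on chondroitin sulfate, had 30.5 CPM in sensitive cells (29.4 to 31.7), 22.6 CPM in intermediate resistant cells (21.7 to 23.5) and 21.2 CPM in fully resistant cells (20.3 to 22.1). Both resistant libraries were below the sensitive one, at ratios of 0.740 for intermediate resistant and 0.695 for fully resistant cells, and the ratio of fully over intermediate resistant cells was 0.938 (0.885 to 0.994).

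PTPRK (ENSG00000152894), the adhesion receptor that acts on beta-catenin complexes, had 3.76 CPM in sensitive cells (358 UMIs), 4.32 CPM in intermediate resistant cells (443 UMIs) and 7.49 CPM in fully resistant cells (795 UMIs). The fully resistant library stood above both others, 1.99-fold over sensitive cells (1.75 to 2.26) and 1.73-fold over intermediate resistant cells (1.54 to 1.95), whereas the ratio of intermediate resistant over sensitive cells, 1.15 (0.997 to 1.32), included 1. PTPRA (ENSG00000132670) had 45.6 CPM in sensitive cells (4334 UMIs), 31.5 CPM in intermediate resistant cells (3223 UMIs) and 34.5 CPM in fully resistant cells (3666 UMIs). Its ratio over sensitive cells was 0.690 (0.659 to 0.723) in intermediate resistant cells and 0.758 (0.725 to 0.792) in fully resistant cells. Between the resistant libraries the ratio was 1.10 (1.05 to 1.15) and its log2 value, 0.13, became -0.01 when libraries were scaled by the trimmed mean of M-values (TMM), so no order of these 2 levels is given.

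The ratios of all genes set the background for these numbers. In fully resistant over sensitive cells 6.73% of 9800 genes with at least 5 CPM in 1 library were higher by 2-fold or more and 7.33% were lower by as much; of the 5 phosphatases at that level, PTPRF was higher and PTPRG lower by this measure. In intermediate resistant over sensitive cells 2.38% of 9529 genes were higher and 4.81% lower by 2-fold, and of 4 phosphatases PTPRG was higher and none lower. In fully over intermediate resistant cells 5.71% of 9614 genes were higher and 3.91% lower by 2-fold, and of 5 phosphatases PTPRF was higher and PTPRG lower. PTPRD and PTPRZ1 never reached 5 CPM, and PTPRK did so only in fully resistant cells. Since the genes were chosen on these contrasts, nothing is read from the counts. The comparisons share libraries and are not independent of one another.

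**Figure D2:**
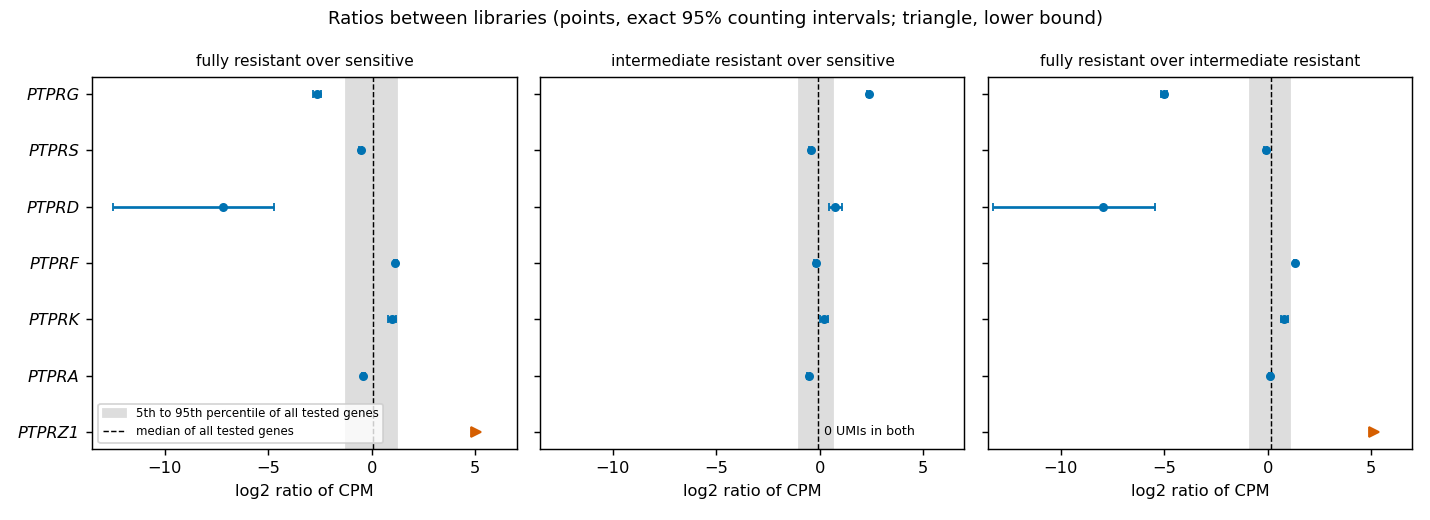
Log2 ratio of CPM for each phosphatase in fully resistant over sensitive, intermediate resistant over sensitive and fully over intermediate resistant cells. Points carry exact 95% counting intervals, the triangle of PTPRZ1 is a lower bound, the grey band spans the 5th to 95th percentile of all tested genes and the dashed line is their median. PTPRG lies outside the band in all 3 comparisons, at -2.64, 2.37 and -5.01.

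For PTPRG and PTPRF the differences were seen in many cells, and for PTPRZ1 in few. With every cell thinned to 5000 UMIs, a PTPRG UMI was found in 8.48% of sensitive cells, 37.3% of cells at the intermediate stage and 1.52% of those fully resistant, and without thinning in 25.6%, 70.1% and 4.96%. PTPRG UMIs were less even over intermediate resistant cells than a Poisson spread of the same UMIs: it gives 39.2% at 5000 UMIs against 37.3% seen (36.1 to 38.6), and 60.9% at 9500 UMIs against 55.4% seen (54.1 to 56.6). PTPRF was found at 5000 UMIs in 14.3% of sensitive cells, 14.0% of intermediate resistant cells and 29.2% of those fully resistant, and unthinned in 41.0%, 36.2% and 63.6%. PTPRZ1 was in 0.474% of fully resistant cells at 5000 UMIs and in 1.58% unthinned, and at 9500 UMIs 4 cells held 2 or more, 0.0685% against 0.00524% for a Poisson spread. PTPRD was in 0.702% of sensitive and 1.03% of intermediate resistant cells and in 0 of 6331 fully resistant cells at 5000 UMIs, which allows a share with a UMI of up to 0.0474%; this limits cells with a UMI and not cells that express the gene. The variance of UMIs per cell over their mean was 1.24 for PTPRS in sensitive cells and 1.12 for PTPRG in intermediate resistant cells at 5000 UMIs, and 1.28 and 1.29 at 9500 UMIs. All cells belong to 1 line, so no cell type that lacks these RNAs was at hand for a background share, and the empty droplet values above stand in for one.

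**Figure D3:**
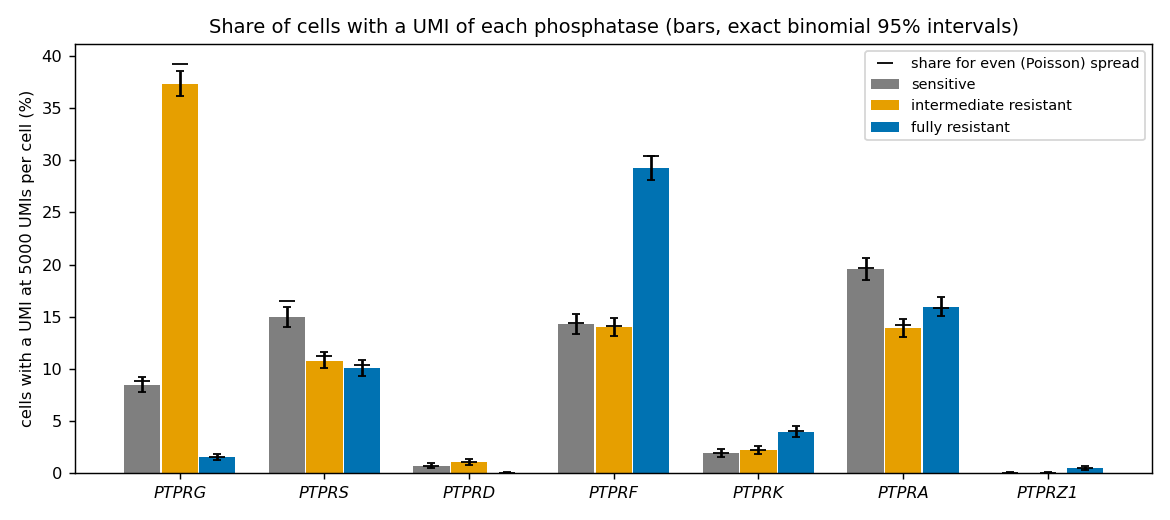
Share of cells, in %, with a UMI of each phosphatase after thinning to 5000 UMIs per cell, in sensitive, intermediate resistant and fully resistant cells. Error bars are exact binomial 95% intervals and the horizontal marks show the share that an even Poisson spread gives. PTPRG is in 37.3% of intermediate resistant cells, where the mark for an even spread lies above the interval, as it does for PTPRS in sensitive cells.

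Among the 5 members with enough UMIs for it, PTPRS had the highest ratios of other genes between cells with and without its UMI. Sensitive cells with a PTPRS UMI had 2.88-fold more CTNNB1 RNA, which encodes beta-catenin, than those without (236.8 against 82.3 CPM; 2.66 to 3.11), 2.15-fold more HNRNPH1 RNA, a splicing factor (2.02 to 2.29), and 1.95-fold more SPC24 RNA, a kinetochore protein (1.70 to 2.22). The same ranking was then read in the other libraries. CTNNB1 ranked first and HNRNPH1 next in each: among 2245 genes in sensitive cells, among 2196 in intermediate resistant cells with ratios of 2.52 and 2.07, and among 2390 in fully resistant cells with 2.33 and 1.86. The median ratio over these genes was between 0.999 and 1.02. Cells with 2 or more PTPRS UMIs had 383.8 CPM of CTNNB1 in the sensitive library against 82.3 CPM in cells with none, 325.8 against 77.7 CPM in the intermediate resistant library and 180.8 against 47.3 CPM in the fully resistant library. CTNNB1 thus went up with PTPRS UMIs within every library, while between libraries both were lower in fully resistant than in sensitive cells, CTNNB1 at 0.554-fold. Cells with 2 or more PTPRS UMIs had fewer UMIs before thinning: medians were 11251 against 16214 in sensitive, 12265 against 15799.5 in intermediate resistant and 12936.5 against 16089 in fully resistant cells. Their mitochondrial share was near that of the other cells (5.78% against 5.58% in the sensitive library). The part of cell size or cell state in this relation was not tested.

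**Figure D4:**
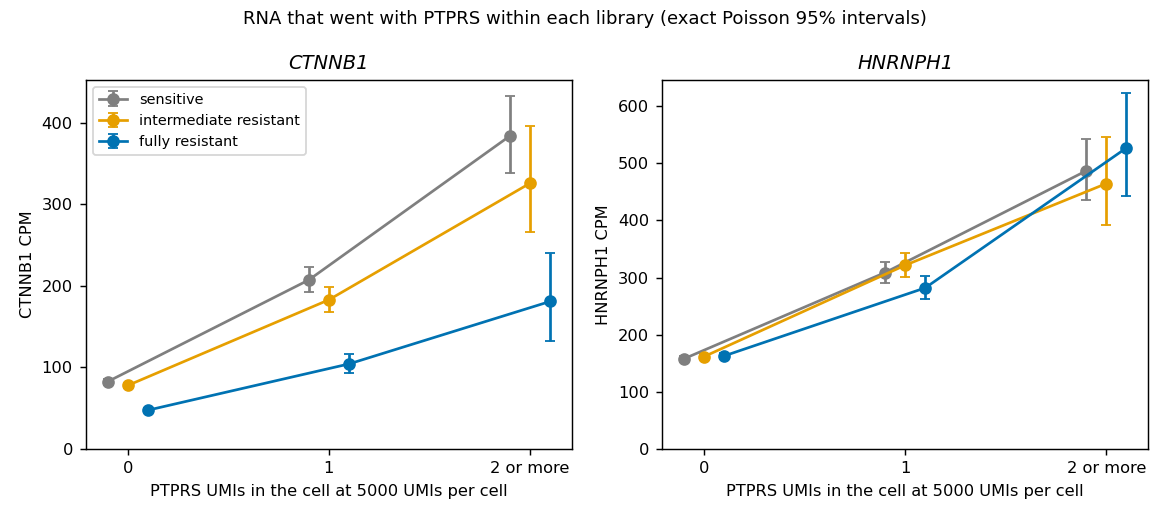
CTNNB1 and HNRNPH1 levels, in CPM with exact Poisson 95% intervals, in cells with 0, 1 or at least 2 PTPRS UMIs after thinning to 5000 UMIs per cell. The lines are the sensitive, intermediate resistant and fully resistant libraries. CTNNB1 rises with PTPRS UMIs in all 3 libraries, to 383.8 CPM in sensitive cells.

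Among the members with enough UMIs, the highest ratios above 1 were smaller for the others than for PTPRS. Intermediate resistant cells with a PTPRG UMI had 1.51-fold more PLK1 RNA (60.4 against 39.9 CPM; 1.37 to 1.68) and more AURKA RNA (99.4 against 66.2 CPM; ratio interval 1.39 to 1.63), both mitotic kinases and the only genes past 1.5-fold. In that library the fifth of cells with most G2 and M phase RNA had 134.7 CPM of PTPRG against 73.7 CPM in the fifth with least, a ratio of 1.83 (1.63 to 2.05); 21.4% of all genes had a ratio as high or higher, and their median was 1.36. PTPRF went with NEFM, a neurofilament subunit, in fully resistant cells (867.0 against 574.3 CPM; 1.51-fold, 1.47 to 1.55), and PTPRK went against it, at 316.8 CPM with a PTPRK UMI and 674.0 CPM without (0.470-fold, 0.424 to 0.519). PTPRF and PTPRK were thus both highest in the fully resistant library and differed in sign against NEFM within it. PTPRK also went with PRSS56 (1.63-fold), NPEPPS (1.56-fold) and SFT2D1 (1.51-fold), and for PTPRA no gene passed 1.5-fold in sensitive cells. PTPRD in 65 intermediate resistant cells and PTPRZ1 in 30 fully resistant cells rested on too few UMIs to name genes by this measure.

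PTPRG had no close match in profile over the 3 libraries. By the root mean square distance between centred log2 CPM, the nearest to PTPRG were TG, which encodes thyroglobulin (0.48), TNNT2, a troponin (0.55), and HRK, a proapoptotic BH3 protein (0.77), of 5265 candidates. TG had 30.2 CPM in sensitive, 80.7 CPM in intermediate resistant and 5.32 CPM in fully resistant cells. PTPRG had 0 candidates within 0.25, whereas PTPRF had 186, led by NBEAL1, MAP4K4 and IFT81. With 3 libraries such likeness is a description only. For PTPRD and PTPRZ1, with 1 UMI or none in a library, distances would rest on the limit of 3 UMIs, and no nearest genes are given.

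Neighbouring genes on the chromosome were compared in RefSeq gene order, with up to 10 measured genes on each side. PTPRG on chromosome 3 lay at a step. In fully resistant over sensitive cells the 10 genes at smaller coordinates, ARF4 to FHIT, were all lower, with a median log2 ratio of -0.99 and a range of -1.62 to -0.31, and the 10 at larger coordinates, CADPS to UBA3, had a median of 0.01, with 5 lower and 5 higher. The median over all genes was 0.08. Against intermediate resistant cells the same sides had medians of -0.86 (10 of 10 lower) and 0.22. PTPRG at -2.64 was below all 10 genes of the smaller-coordinate side. CADPS, a vesicle priming factor and the next measured gene at larger coordinates, was lower still at -4.98 in fully resistant over sensitive cells (0.443 against 13.9 CPM). The higher PTPRG level in intermediate resistant over sensitive cells, a log2 ratio of 2.37, was reached by none of the 20 neighbours, whose median was -0.15.

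PTPRD on chromosome 9 had lower neighbours on both sides in fully resistant over sensitive cells: 17 of 18 were lower, with a median log2 ratio of -0.90. The next at larger coordinates, LURAP1L, was at -4.53 (0.254 against 5.86 CPM), and CER1 was the 1 higher gene at 4.50. PTPRD was below all 18, at -5.62 when its 1 UMI is set to the limit of 3. The neighbours of PTPRS, PTPRF, PTPRK, PTPRA and PTPRZ1 had medians of 0.07 to 0.26. Around PTPRZ1 on chromosome 7, AASS, the next measured gene, was far higher, at 6.24. AASS was already higher in intermediate resistant over sensitive cells, at 3.88 (1.70 against 0.116 CPM). PTPRZ1 had 0 UMIs in both of these libraries. DNA copy number was not measured in these libraries, and its part in the values around PTPRG and PTPRD was not tested.

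**Figure D5:**
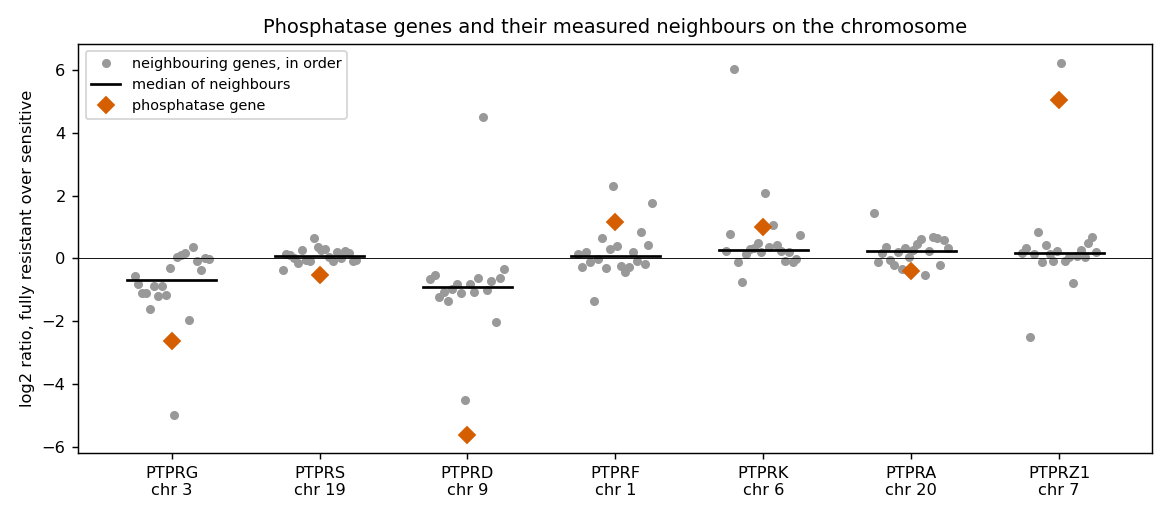
Log2 ratio of CPM, fully resistant over sensitive, for each phosphatase (diamond) and its measured neighbours in chromosome order (grey points, up to 10 on each side, with their median as a bar). PTPRD and PTPRZ1 are drawn with counts under 3 UMIs set to 3. The neighbour median is -0.90 for PTPRD and -0.68 for PTPRG, where it is -0.99 at smaller and 0.01 at larger coordinates. The other 5 have neighbour medians near 0.

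Ligands of these receptors were read from lists, with 1.5-fold as the limit; all numbers of a list are of genes with at least 5 CPM in 1 library of the pair. For fully resistant over sensitive cells 15.2% of all genes passed it upward and 14.7% downward, for intermediate resistant over sensitive cells 5.83% and 12.2%, and for fully over intermediate resistant cells 13.8% and 8.13%. Of 7 soluble and matrix ligands, 3 were higher in fully resistant than in sensitive cells and none lower, with a median log2 ratio of 0.43. PTN, which encodes the PTPRZ1 ligand pleiotrophin, was 2.23-fold higher in fully resistant than in sensitive cells (16.4 against 7.33 CPM; 2.04 to 2.44) and 1.79-fold higher in intermediate resistant cells (13.1 CPM). MDK, which encodes the related midkine, had 1678 CPM in fully resistant and 1249 CPM in sensitive cells, a ratio of 1.34 that did not reach the limit. COL9A2 and COL9A3, chains of a matrix collagen, were 17.6-fold and 5.17-fold higher in fully resistant than in sensitive cells. COL9A1, the other chain, was below 5 CPM and went the opposite way, with 3 UMIs in fully resistant and 206 UMIs in sensitive cells (0.0130-fold, 0.00267 to 0.0387). In intermediate resistant over sensitive cells 2 of 6 ligands were higher and 1 lower: VCAN, a chondroitin sulfate proteoglycan, was at 14.1 against 47.2 CPM (0.298-fold). In fully over intermediate resistant cells 3 of 7 were higher and none lower, VCAN among them at 2.45-fold.

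Among cell surface ligands, lower levels outnumbered higher ones. SDC1 and SDC2, heparan sulfate syndecans, were lower in fully resistant than in sensitive cells, SDC1 at 0.253-fold and SDC2 at 10.3 against 41.1 CPM, and at 0.384-fold and 0.464-fold in intermediate resistant over sensitive cells, and they were the 2 of 5 membrane proteoglycans past the limit in each of the 3 comparisons, all lower. Of 6 adhesion ligands, 3 were lower and 1 higher in fully resistant than in sensitive cells. CNTN1, a contactin that binds PTPRZ1, had 5.23 CPM in fully resistant and 27.7 CPM in sensitive cells (0.189-fold, 0.172 to 0.207), and CNTN2 had 10.5 CPM against 2.32 CPM (4.50-fold, 3.90 to 5.23). PTPRZ1 and its partner CNTN1 thus differed in opposite directions between these libraries. L1CAM (0.409-fold) and LRFN4 (0.462-fold), neural adhesion proteins, were the other lower genes. In intermediate resistant over sensitive cells 1 of 5 was lower, LRFN4 at 0.411-fold, and none higher. In fully over intermediate resistant cells 2 of 6 were lower, CNTN1 and L1CAM, and CNTN2 was higher at 6.38-fold.

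Inside the cell, of 17 cytoplasmic partners 3 were higher and 3 lower in fully resistant than in sensitive cells, with a median log2 ratio of -0.07. PPFIA3, a liprin that binds the LAR family, was lower at 0.355-fold, as were MAGI3 (0.460-fold), a scaffold, and CTNNB1. CTNNA1, which encodes alpha-catenin, was 1.98-fold higher (43.2 against 21.9 CPM), and CASK and GRB2 were also higher. In intermediate resistant over sensitive cells 1 was higher, the adaptor GRB2 at 1.54-fold, and 2 were lower, PPFIA3 and DLG4. In fully over intermediate resistant cells 2 were higher, CTNNA1 and TRIO, and 2 lower, CTNNB1 (0.607-fold) and MAGI3 (0.663-fold).

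Of 20 reported substrates 6 were higher and 5 lower in fully resistant than in sensitive cells, 4 higher and 5 lower in fully over intermediate resistant cells, and 2 of 19 each way in intermediate resistant over sensitive cells. FYN and SRC, kinases that PTPRA activates, were 2.54-fold (105.0 against 41.4 CPM) and 2.11-fold (16.4 against 7.76 CPM) higher in fully resistant than in sensitive cells, while PTPRA itself was at 0.758-fold. The receptor kinases split: EPHA2 was 6.57-fold higher in fully resistant than in sensitive cells, RET was at 0.0589-fold and ALK at 0.230-fold, and EGFR was 2.74-fold higher in intermediate resistant than in sensitive cells. Of 8 proteases that shed or cut these receptors, none passed 1.5-fold in fully resistant over sensitive or in fully over intermediate resistant cells, and PSEN2 alone was lower in intermediate resistant over sensitive cells (0.641-fold).

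Few other phosphatases of the class reached 5 CPM. Of 13 other receptor tyrosine phosphatases 3 did so in fully resistant over sensitive cells and all 3 were at least 1.5-fold lower: PTPRU at 3.41 against 10.0 CPM, PTPRN at 12.3 against 23.1 CPM and PTPRO at 4.36 against 6.92 CPM. In intermediate resistant over sensitive cells PTPRU was lower at 0.463-fold and the other 2 were at 1.20-fold and 1.14-fold, and in fully over intermediate resistant cells PTPRN and PTPRO were both lower. Below that level genes went both ways. PTPRN2 was 1.54-fold higher in fully resistant than in sensitive cells (297 against 173 UMIs, interval 1.27 to 1.87). PTPRJ was 1.96-fold higher in fully than in intermediate resistant cells (61 against 30 UMIs, interval 1.25 to 3.15). Lower in fully resistant than in sensitive cells were PTPRE (36 against 233 UMIs, 0.138-fold), PTPRH (24 against 68 UMIs, 0.316-fold) and PTPRR (38 against 103 UMIs, 0.331-fold). PTPRT had 12 UMIs in intermediate resistant cells and 0 in sensitive cells. These genes below 5 CPM were named after their values were seen. Of 10 non-receptor tyrosine phosphatases 4 were higher and 1 lower in fully resistant than in sensitive cells, with PTPN1, which dephosphorylates the insulin receptor, at 2.02-fold, PTPN2 at 1.74-fold, PTPN11, which encodes SHP2, at 1.61-fold, PTPN6 at 1.57-fold and PTPN23 at 0.608-fold. PTPN6 was 2.48-fold higher and PTPN9 was at 0.498-fold in intermediate resistant over sensitive cells, 1 each way of 10. In fully over intermediate resistant cells PTPN1 and PTPN12 were higher and PTPN6 and PTPN23 lower.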

How the data were processed

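RNA of 3 Kelly libraries was measured with 10x Genomics 3' v2 kits, per the labels' protocols, 1 library per state. The authors deposited UMI counts for every gene and barcode, with no normalization. bcl2fastq, Cell Ranger and build hg19 are named per the submitters' processing notes, and their versions and settings are not given in the sources used here. No sample column went unused (0).

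Cells were called at 5000 UMIs, 500 genes and 20% MT- at most. 4 barcodes of the intermediate resistant library and 2 of the fully resistant library were removed by the mitochondrial limit. Doublets were kept, and leaving out the 5% of cells with most UMIs was an alternative. UMIs were summed over cells and divided by their total (CPM). Intervals are 95% exact Poisson for levels, exact conditional for ratios and Clopper-Pearson for shares; the limit for a count of 0 is 3 UMIs. UMIs are not separate cultures, so intervals cover counting error only, and with 1 library per state no test across libraries was made. A gene entered a background count with at least 5 CPM in 1 library of the pair. Shares and comparisons between cells used each cell thinned to 5000 UMIs.

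The members and lists were chosen with earlier results of these data known. Named genes were all 7 members, the 3 genes nearest in profile to members past 2-fold in a comparison (at least 20 CPM; left out for PTPRD and PTPRZ1, whose profiles rest on the limit for a count of 0), the 3 with the highest ratio (at least 1.5, at least 50 CPM) in cells with a member's UMI, and up to 5 genes per list and comparison with the greatest change. RefSeq names matched 19234 of 32738 gene IDs and all 7 members, and promoters are RefSeq's in GRCh38.p14; no coordinates were moved between builds. Fibroblast, immune and epithelial marker lists summed to 31.9 to 41.3, 2.28 to 6.40 and 1.46 to 13.3 CPM per library. Python 3.11.15, numpy 2.4.6, scipy 1.17.1, pandas 2.3.3, matplotlib 3.10.9, R 4.3.3 and edgeR 4.0.16 (TMM factors only) were used, and the ratio and interval code was tested on simulated data.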

Additional observations from a re-analysis of the deposited data

How the results depend on the processing

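No paired analysis was possible because each state was 1 library, and for the same reason no replicate could be left out. Of 184 alternatives for ratios of single members, 167 stayed within counting error and 17 moved, and none of the called ratios changed sign. The 184 include ratios within the fully resistant library, of PTPRZ1 between cells with and without a TH or RGS5 UMI. Among these the unthinned RGS5 ratio moved. Of 42 alternatives for the share of cells with a UMI, at 9500 UMIs or without thinning, 36 moved, since the share depends on depth. PTPRS crossed 1.5-fold in fully resistant over sensitive cells: its log2 ratio was -0.53, and -0.62 with TMM, -0.60 with median-of-ratios scaling and -0.66 with each cell weighted equally, which takes the members past 1.5-fold from 5 to 6. The count was 2 in intermediate resistant over sensitive cells and 5 in fully over intermediate resistant cells in every alternative run. These counts are of all 7 members with no CPM limit, PTPRD and PTPRZ1 among them. With the limit of 5 CPM, 2 members were higher and 1 lower by 1.5-fold in fully resistant over sensitive cells. In intermediate resistant over sensitive cells 1 was higher and 0 lower, and in fully over intermediate resistant cells 2 and 1. The 2-fold gene counts moved with the CPM limit. At 20 CPM, 292 genes were higher and 297 lower in fully resistant over sensitive cells, 88 and 182 in intermediate resistant over sensitive cells, and 234 and 146 in fully over intermediate resistant cells; with no limit these were 2748 and 2344, 1808 and 1626, and 2067 and 1915. Without mitochondrial and ribosomal protein genes in the total, 356 genes were higher in intermediate resistant over sensitive cells and 591 lower in fully over intermediate resistant cells. TMM moved the median log2 ratio of all genes in fully over intermediate resistant cells from 0.15 to 0.0018, and the share of called genes that were higher from 59.4% to 47.0% (49.6% with median-of-ratios, 49.7% without mitochondrial and ribosomal protein genes). Few UMIs limit PTPRD and PTPRZ1. The counting intervals of their ratios of fully resistant over other cells are wide or have no finite end. That an alternative stayed within them therefore says little.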

Other observations

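PTPRS differed between deep and shallow cells. The third of cells with fewest UMIs had 45.6 CPM of PTPRS in the sensitive library against 27.2 CPM in the third with most, 30.7 against 19.2 CPM in the intermediate resistant library and 25.1 against 20.9 CPM in the fully resistant library. PTPRG, by contrast, had 102.3 against 96.3 CPM in the same cells of the intermediate resistant library. This division was chosen after the values were seen.

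PTPRZ1 was lower in cells where TH, the rate-limiting enzyme of catecholamine synthesis, was detected. In fully resistant cells without thinning, its level was 0.677 CPM in cells with a TH UMI and 1.67 CPM in cells without, a ratio of 0.404 (0.271 to 0.600), and at 9500 UMIs per cell the ratio was 0.347. At 5000 UMIs the TH ratio was 0.339 (0.113 to 0.851), on 6 and 24 PTPRZ1 UMIs. For cells with over without a NEUROD1 UMI at 5000 UMIs, the ratio was 1.32 (0.553 to 2.96), which includes 1. With RGS5, a G protein regulator, the ratio was 0.0844 at 5000 UMIs on 1 and 29 PTPRZ1 UMIs, 0.442 at 9500 UMIs and 0.617 unthinned, so its size depended on depth. The settings beyond 5000 UMIs were chosen after seeing the data. PTPRK reached 9 UMIs in 1 fully resistant cell of 31352 UMIs, and 9 cells with at least 3 held 36 of its 795 UMIs there.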
